A study of Zea mays with 36 samples.

Results

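Transcripts of 4 maize chromatin genes were followed between the shoot apical meristem (SAM) and the whole seedling: MNB1b and nfd101, which encode proteins of the high mobility group (HMG), mbd113, which encodes a methyl-DNA binding protein, and his2b5, a gene for the core histone H2B. Their spots were found through the platform's gene annotation, by symbol or synonym. On the first of the 2 slide sets they were 257 of 18302 probes with values, namely 230 of MNB1b, 18 of his2b5 and 9 of nfd101, and mbd113 had none. The second set held 10 of 12027, namely 5 of MNB1b, 2 of nfd101, 2 of mbd113 and 1 of his2b5; a sixth listed MNB1b spot held no value. The MNB1b spots all stand under a gene ID that is absent from RefSeq's gene table, which gives the symbol to another ID, and the gene with the next most spots on the first set, grp1, had 28. Whether each of them reads MNB1b was not tested, so MNB1b here means the spots the annotation names so. The question put to them is where each transcript lies in the meristem relative to the seedling, and how far the many spots of a single gene give the same answer.

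The meristem RNA came from laser-captured SAMs with their P0 and P1 leaf primordia, 6 to 10 of them pooled per replicate. It was set against RNA of 6 pooled above-ground seedlings without roots, from the same batch of 14-day-old plants of the inbred line B73. The 2 tissues were extracted by different procedures, so tissue and extraction cannot be told apart, and seedling RNA itself includes meristem. Each of 6 replicate pairs was amplified by T7 polymerase from about 10 ng of total RNA and hybridised to 1 slide of each set, with SAM in Cy3 in replicates 1, 3 and 5 and in Cy5 in replicates 2, 4 and 6. In the high scan of replicate 4 of the first set, both dyes have a source label of seedling, and the sample name, which places SAM in Cy5, was followed.

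HMG-box proteins bind the minor groove of DNA with little regard to sequence and bend it, and they are among the most abundant chromatin proteins after the histones. Proteins with a methyl-CpG-binding domain are a family of which some members recognise methylated cytosine, although in plants not every member does. Histone H2B pairs with H2A in the nucleosome core, and its synthesis in plants, as in animals, is tied to DNA replication, which in a shoot is concentrated in the meristem and young primordia.

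All values are log2 ratios set against the slide's median probe, and 3 scans of a slide were averaged. The numerator of the ratio is not given in the sources used here. The photosynthesis genes had medians of −5.82 and −5.08 on the 2 sets, with 8 of 10 and 8 of 8 called below 0. The exceptions on the first set were Cab-m7 at 1.09, called above 0, and PSBQ at 0.26, not past the threshold. On the second set they lay at −4.28 and −6.07. Going by the medians, ratios above 0 are taken to lie likely on the SAM side and ratios below 0 on the seedling side. All 5 green leaf markers measured on each set lay past the threshold on the seedling side. They add little to the photosynthesis genes, since all but por, on the second set, are on that list as well. Of the meristem markers 4 of 4 and 5 of 6 lay past the threshold on the SAM side. The first set's knotted1 (kn1), a homeobox gene that marks the meristem, lay at 0.30 ± 0.25 (SD, n = 6), against 1.95 ± 0.37 on the second. Its spots differed: 3 ran from −0.22 to 0.81 on the first set, and 2 lay at −0.17 and 4.06 on the second. On each set 1 of them passed, on the SAM side, and the second set's mean describes neither of its spots. A ratio of tissues does not tell fewer cells with a transcript from less of it per cell. Precision is limited by the number of slides; signal intensities were not used.

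In limma with Benjamini-Hochberg adjustment, 62.5% of all probes of the first set passed an adjusted p of 0.05, with 31.5% lying to the SAM side and 31% to the seedling side. Of the second set's probes 64.6% passed, with 33.4% to the SAM side and 31.2% to the seedling side. Among named genes the first set had 72.3% past the threshold (SAM side 27.1%, seedling side 45.2%) and the second 73.6% (SAM side 27.9%, seedling side 45.7%). A call is therefore common on these slides, and a gene's level and the likeness of its spots are given beside each call. The term for the dye orientation passed in 3.61% and 3.3% of the named genes of the 2 sets and in none of the 4 genes.

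**Figure D1:**
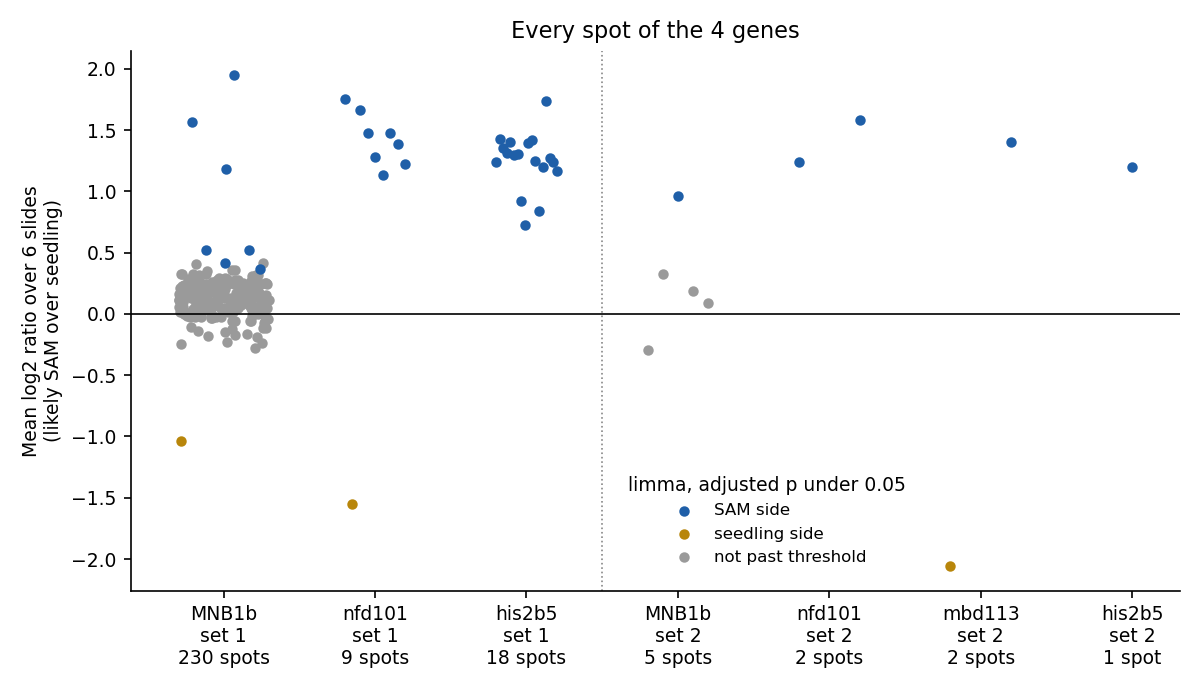
Mean log2 ratio over 6 slides (vertical axis) of every spot of the 4 genes, grouped by gene and slide set and coloured by the limma call. The 230 MNB1b spots of the first set form a band around a median of 0.14 with 8 spots past the threshold, all 18 his2b5 spots lie between 0.73 and 1.74, and 1 nfd101 spot and 1 mbd113 spot lie far below 0 while the other spots of these genes lie above 1.

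MNB1b, an HMG-box protein of maize, lay close to the median probe. The mean of its 230 spots on the first set was 0.08, −0.08 and 0.15 with SAM in Cy3 (replicates 1, 3 and 5). With SAM in Cy5 (replicates 2, 4 and 6) it was 0.14, 0.11 and 0.45. Only replicate 3 lay below 0, and replicate 6 stood highest. The gene averaged 0.14 ± 0.17 (SD, n = 6), a 1.10-fold ratio of SAM over seedling, and did not pass (adjusted p = 0.203). The 95% interval ran from −0.08 to 0.37, so ratios up to 0.37 toward the SAM lie within it.

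Spot by spot, MNB1b formed a narrow band. The median spot lay at 0.14, the middle 50% between 0.05 and 0.23, and 224 of 230 spots (97.4%) within 0.5 of 0; of all probes of the set 39.3% lay that close. The interquartile range over the MNB1b spots was 0.18, against 1.39 over all probes and a median of 0.32 over the 87 genes with at least 5 probes, among which MNB1b ranked 17th from the narrowest. Of the 230 spots 195 averaged above 0 and 35 below. Past the threshold were 7 spots toward the SAM and 1 toward the seedling, 3.48% against the 62.5% of all probes. The count toward the SAM was 18 without replicate 4 and 4 without replicate 1, 5 or 6.

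The band was narrow in the mean over slides and wider on any single slide. Over the spots of 1 slide the SD ran from 0.30 (replicate 4) to 0.56 (replicate 6), while the SD over the spots' means was 0.23. A division of the variation into parts gave an SD of 0.14 between spots, 0.17 between slides and 0.45 for what was particular to a spot on a slide. The largest part therefore belonged neither to the spot nor to the slide as a whole.

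4 MNB1b spots lay beyond 2-fold and gave accounts of the gene that differed from the rest. Spot 5790 lay at −0.99, −0.86 and −1.10 with SAM in Cy3 and at −1.36, −0.64 and −1.28 with SAM in Cy5. It was on the seedling side on every slide, with a mean of −1.04 ± 0.27 (SD, n = 6; adjusted p = 0.000594). Spot 8029 was on the SAM side on every slide, from 0.35 in replicate 3 to 2.38 in replicate 6, with a mean of 1.18 ± 0.70 (adjusted p = 0.0011). Spot 12471 had the highest mean, 1.95 ± 1.26 (adjusted p = 0.00562), with 3.29, 3.63 and 0.34 in replicates 1, 3 and 5 and 1.65, 1.43 and 1.35 in replicates 2, 4 and 6. In the low scans of replicates 5 and 6, the slides with its 2 lowest ratios, this spot held the scan's most repeated value, which is taken to be that of spots at floor level, so its mean rests partly on such scans. Of the other MNB1b spots, spots 9238 and 12060 also held such values.

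The fourth of these, spot 2464, read 2.71, 2.78 and 3.82 with SAM in Cy3 and −0.17, 0.37 and −0.09 with SAM in Cy5. Its SAM-side mean of 1.57 ± 1.73 (adjusted p = 0.000338) came from 1 dye orientation alone, and the groups of 3 slides did not overlap. The dye term, which is positive where the ratio is higher with SAM in Cy3 and gives the distance of either orientation from their mean, was 1.53 for this spot (adjusted p = 0.0329). The remaining 4 spots past the threshold, spots 186, 192, 598 and 1621, lay between 0.37 and 0.52, inside or just outside the band. An exact sign-flip test of each spot against the mean of the gene's other spots reached its smallest p of 0.031 for 8 of the 230 spots and none after adjustment over the gene's spots, since a test over 6 slides cannot go lower.

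The spots of MNB1b carry 411 distinct sequence accessions, 181 spots with more than 1 and 49 with 1 each. No accession is shared between its spots. They are spread over spot numbers 180 to 12617 of 19200, with none beyond.

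Along these numbers the MNB1b ratio ran in opposite ways in the 2 dye orientations. With SAM in Cy3, the median of the first 23 spots against that of the last 23 was 0.30 against −0.07 in replicate 1, −0.08 against −0.29 in replicate 3 and 0.46 against 0.08 in replicate 5. With SAM in Cy5 the same medians were −0.07 against 0.44 in replicate 2, 0.08 against 0.20 in replicate 4 and 0.29 against 1.12 in replicate 6. All 3 slides of the first kind were lower at high spot numbers and all 3 of the second kind higher. The rank correlation of ratio and spot number over the 230 spots was −0.68, −0.39 and −0.44 on the Cy3 slides and 0.45, 0.27 and 0.48 on the Cy5 slides, and 0.10 for the mean of the 6 slides. These correlations describe spots that share a gene and a slide.

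The dye term of MNB1b spots had a median of 0.14 in the first of 10 groups of 23 spots and −0.43 in the ninth, and 13 of the 21 spots with a called dye term stood in the last 3 groups. The called share of dye terms was 9.13% over the MNB1b spots, against 12.7% over all probes of the set. The same course was seen in all probes: over 18302 probes the dye term and the spot number had a Pearson correlation of −0.52, against −0.51 over the MNB1b spots, −0.61 over the 18 his2b5 spots and −0.72 over the 9 nfd101 spots. Over the 12027 probes of the second set this correlation was 0.0025. After each slide was centred on the running median of 500 probes along the spot numbers, a step chosen after seeing the data, it was 0.043 over the MNB1b spots of the first set. The gene's mean was then 0.13 and did not pass (adjusted p = 0.257). What the spot number stands for (place on the slide, print order, signal or hybridisation) was not tested.

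**Figure D2:**
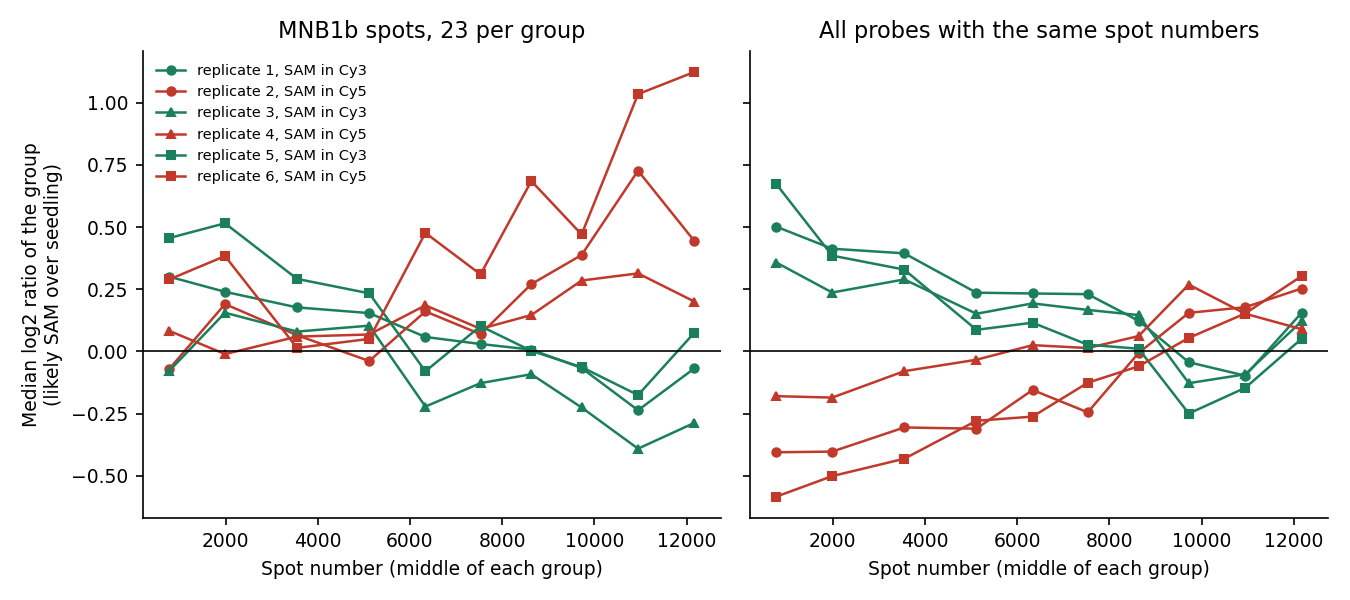
Median log2 ratio (vertical axis) against spot number (horizontal axis) on the 6 slides of the first set, for 10 groups of 23 MNB1b spots (left) and for all probes with the same spot numbers (right); green lines are slides with SAM in Cy3 and red lines slides with SAM in Cy5. The green lines end lower than they start and the red lines higher, for example 0.46 against 0.08 in replicate 5 and 0.29 against 1.12 in replicate 6 for MNB1b.

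The 5 MNB1b spots of the second set were less alike, with an SD over spots of 0.46 against 0.23. Their mean was −0.21, −0.13 and 0.30 with SAM in Cy3 and 0.52, 0.41 and 0.62 with SAM in Cy5. The 3 Cy5 slides were all higher than the 3 Cy3 slides, but the gene's dye term in limma did not pass (adjusted p = 0.161). The gene averaged 0.25 ± 0.35 (SD, n = 6) and passed on the SAM side (adjusted p = 0.0471). The call is marginal: the mean was −0.013 on the Cy3 slides alone and 0.52 on the Cy5 slides alone, and the gene did not pass without the dye term (adjusted p = 0.142), without centring (0.0564) or in the high scan alone (0.238). Leaving out any of replicates 2 to 6 also ended it, with means of 0.17 to 0.28 and adjusted p of 0.0703 to 0.132.

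A single spot of the 5 passed, spot 9408 at 0.96 ± 0.47, which was above 0 on all slides, from 0.33 in replicate 1 to 1.52 in replicate 2. Spot 12032 read −1.22, −0.90 and −0.42 with SAM in Cy3 and 0.90, 1.01 and 1.17 with SAM in Cy5. Its mean of 0.09 ± 1.06 therefore stands for no slide, and its dye term of −0.94 passed (adjusted p = 0.00881), as 8.41% of this set's probes did. The other spots lay at 0.32, 0.19 and −0.30 and did not pass. The first set's mean lay 0.11 below that of the second, a difference within the spread of slides (exact permutation test of 6 slides against 6, adjusted over 3 genes, p = 0.634).

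nfd101, the other HMG gene, was on the SAM side on both sets. On the first set the mean of its 9 spots was 1.07, 0.90 and 1.15 with SAM in Cy3 and 1.28, 0.75 and 1.42 with SAM in Cy5. The orientations overlapped, and the gene averaged 1.10 ± 0.25 (SD, n = 6; adjusted p = 0.000228), 2.14-fold in favour of the SAM. The mean of the second set's 2 spots was 1.20, 1.29 and 1.56 with SAM in Cy3 and 1.87, 1.03 and 1.53 with SAM in Cy5. There it averaged 1.41 ± 0.30 (adjusted p = 6.08e-05), 2.66-fold in favour of the SAM.

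The mean of the first set hides a split among its spots. 8 of the 9 lay between 1.13 and 1.75 and passed on the SAM side, while spot 227 lay at −1.55 ± 0.42 (adjusted p = 0.000322) on the seedling side. That spot read −1.72, −0.85 and −1.90 with SAM in Cy3 and −1.69, −1.21 and −1.90 with SAM in Cy5. It was below 0 on every slide, and it lay nearest to 0 in replicates 3 and 4, where the mean of the 8 others was lowest (1.12 and 0.99). Without it, a choice made after seeing the values, the first set's mean was 1.43 ± 0.32, against 1.41 on the second set.

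Of the 8 spots on the SAM side, spot 85 led at 1.75 ± 0.34, followed by spot 449 at 1.67 ± 0.48. Spot 7731 was the lowest of them and the steadiest, at 1.13 ± 0.17. Spot 17749, the highest numbered, varied most, from 0.50 in replicate 3 to 2.01 in replicate 2. Against the mean of the gene's other spots, 4 spots including spot 227 reached the exact test's smallest p of 0.031, and none passed after adjustment (0.0703). In the high scan alone 6 did. For each of the 8 SAM-side spots that mean takes in spot 227, which lowers it. Those that reached the smallest p, spots 85, 449 and 4512, lay above it by 0.74, 0.64 and 0.43. The test therefore does not tell whether the 8 spots differ from each other. The second set's spots 9331 and 11710 lay at 1.24 ± 0.36 and 1.59 ± 0.30.

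With all 9 spots, the first set minus the second gave −0.32 for nfd101 (exact permutation test, adjusted p = 0.214). With a replicate block, since the same RNA pairs were put on both sets, the adjusted p of that difference was 0.0938 in the exact test.

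mbd113, of the methyl-DNA binding family, was measured on the second set by 2 spots that contradict each other. Spot 682 read −1.57, −2.31 and −1.96 with SAM in Cy3 and −2.49, −1.93 and −2.09 with SAM in Cy5. Its mean of −2.06 ± 0.32 (adjusted p = 3.55e-05) was 4.16-fold in favour of the seedling. Spot 2495 read 1.77, 1.17 and 1.53 with SAM in Cy3 and 1.001, 1.458 and 1.490 with SAM in Cy5. Its mean of 1.40 ± 0.27 (adjusted p = 0.000112) was 2.64-fold in favour of the SAM.

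The 2 spots did not overlap on any slide, yet each was highest in replicate 1 and lowest in replicate 2. Each kept its side in every scan, in either dye orientation and with any replicate left out. Their mean, −0.33 ± 0.30, lay on the seedling side past the threshold (adjusted p = 0.0435). This call was lost in 9 of the alternatives tried. They were the low and the high scan alone, either dye orientation alone, and the removal of any of replicates 2 to 6, which gave means of −0.38 to −0.24 and adjusted p of 0.0576 to 0.126. As the average of opposite readings it describes neither spot. Which of the spots carries the mbd113 transcript was not tested, and no sequence of either was used here.

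**Figure D3:**
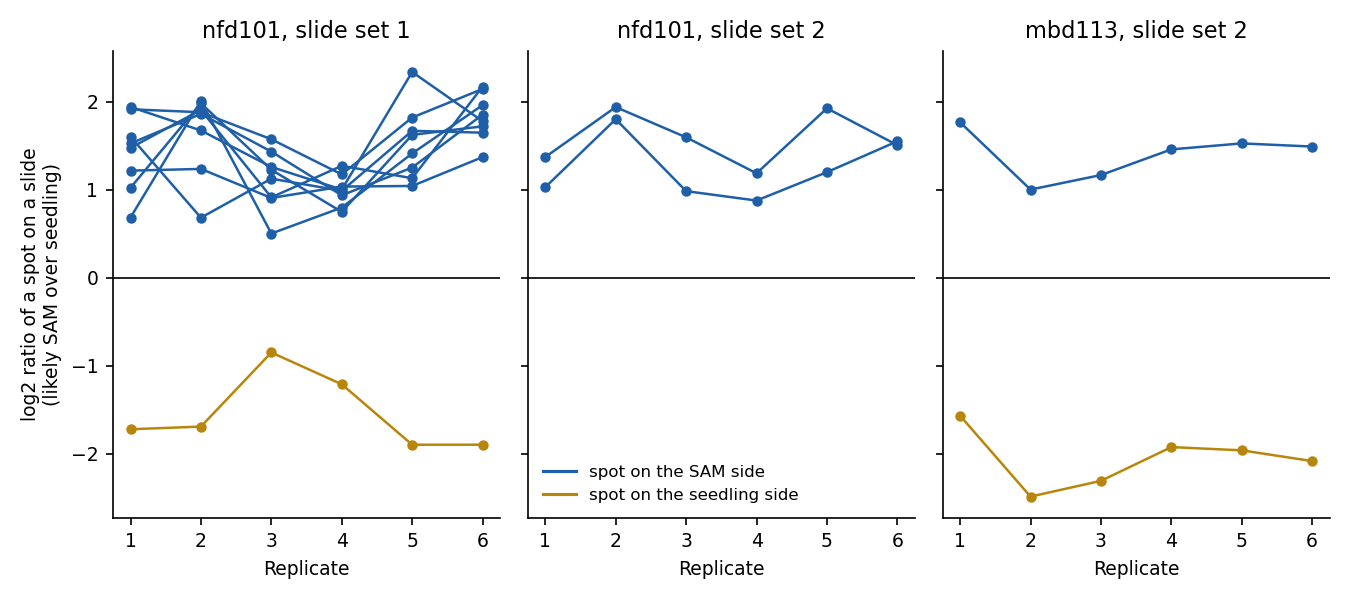
log2 ratio of each spot (vertical axis) on the slides of replicates 1 to 6 (horizontal axis), for nfd101 on both slide sets and mbd113 on the second; lines only join the values of a spot. nfd101 spot 227 stays between −1.90 and −0.85 while the other 8 spots do not go below 0.50, and the mbd113 spots stay near −2.06 and 1.40.

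his2b5, the histone gene, lay on the SAM side in every spot of both sets. On the first set the mean of its 18 spots was 1.19, 1.09 and 1.25 with SAM in Cy3 and 1.34, 1.09 and 1.55 with SAM in Cy5. Every slide lay above 1, and the gene averaged 1.25 ± 0.18 (SD, n = 6; adjusted p = 5.03e-05), 2.38-fold in favour of the SAM. The single spot of the second set read 1.04, 1.28 and 1.35 with SAM in Cy3 and 1.17, 0.95 and 1.41 with SAM in Cy5. It averaged 1.20 ± 0.18 (adjusted p = 2.86e-05), 2.30-fold in favour of the SAM, within 0.05 of the first set (exact permutation test, adjusted p = 0.634).

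All 18 spots passed on the SAM side, and each was above 0 on all 6 slides. They ran from spot 9306 at 0.73 ± 0.24 to spot 11714 at 1.74 ± 0.53, with a median of 1.29 and an interquartile range of 0.18. Their SD of 0.23 was also close to that of the MNB1b spots. Spots 11248 and 8937, at 0.84 and 0.93, lay below the others, and in the high scan alone spot 8937 fell to 0.16, which did not pass (adjusted p = 0.351).

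Of the 18 his2b5 spots 1 had a called dye term, where 12.7% of all probes of the set did. Spot 2417, the lowest numbered, read 1.70, 1.82 and 2.33 with SAM in Cy3 and 0.73, 0.28 and 0.57 with SAM in Cy5. That was the called dye term, at 0.71 (adjusted p = 0.0345), and on the Cy5 slides alone its ratio of 0.53 did not pass. Spot 9659 read 1.06, 0.53 and 0.82 with SAM in Cy3 and 2.20, 1.48 and 2.29 with SAM in Cy5, and its dye term of −0.59 did not pass (adjusted p = 0.0502). Averaged over both orientations these spots lay at 1.24 and 1.40.

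**Figure D4:**
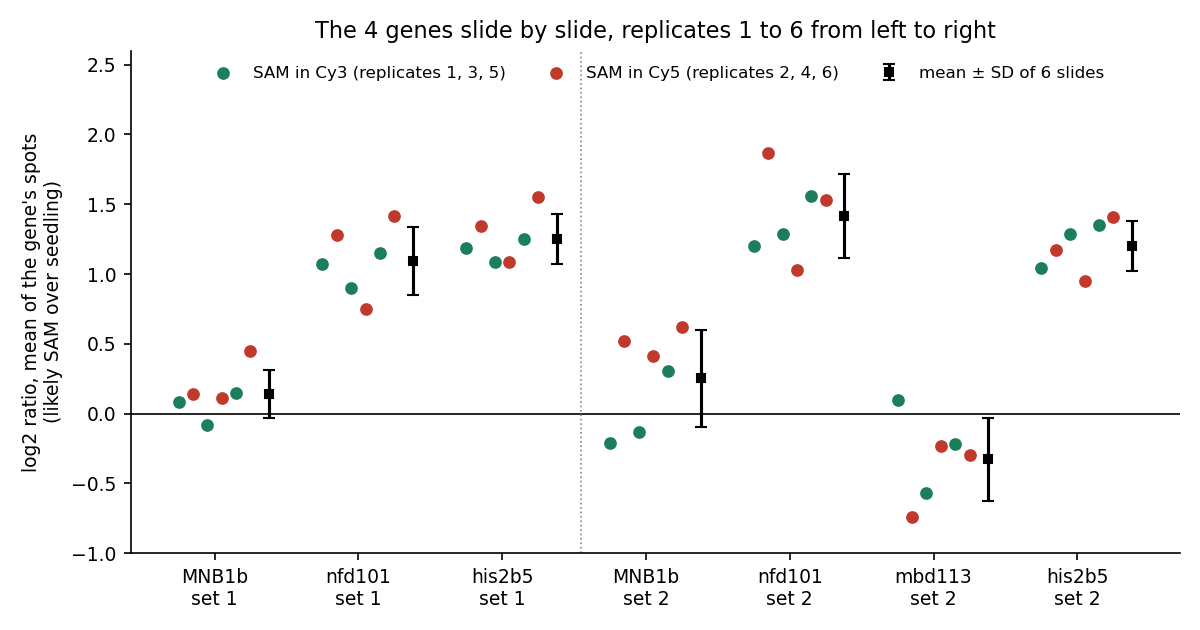
log2 ratio of each gene (vertical axis, mean of its spots) on the 6 slides of each set, replicates 1 to 6 from left to right within a gene, with the mean and SD in black. his2b5 and nfd101 stay above 0.7 on all slides, and MNB1b stays near 0. On the second set the 3 Cy5 slides of MNB1b (0.41 to 0.62) lie above its 3 Cy3 slides (−0.21 to 0.30). Its dye term there did not pass.

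Set against each other on the same slides, the 2 genes that the annotation names MNB1b and nfd101 differed. MNB1b lay below nfd101 by 0.95 in the first set and by 1.16 in the second, lower on 6 of 6 slides each (exact sign-flip test over 6 slides, adjusted p = 0.031 over 3 pairs and 0.0375 over 6 pairs). It lay 1.11 and 0.95 below his2b5, again on 6 of 6 slides of each set with the same adjusted p. Against mbd113, MNB1b lay 0.58 higher on 5 of 6 slides and did not pass (exact test, adjusted p = 0.0625).

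The order of nfd101 and his2b5 was not settled. In the first set nfd101 was lower by 0.16 on 6 of 6 slides (exact test, adjusted p = 0.031), and in the second it was higher by 0.21 on 6 of 6 slides (exact test, adjusted p = 0.0375). With the median of a gene's spots in place of the mean, which gives spot 227 little weight, nfd101 was higher by 0.19 on the first set. In the high scan alone it was lower by 0.089 on the second. In order of level, his2b5 and nfd101 thus shared the top, MNB1b followed near 0, and the mbd113 mean came last with its spots at both ends.

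The scans of a slide gave different sizes. For his2b5 the first set gave 1.33 in the low scan, 1.30 in the medium and 1.12 in the high scan. For nfd101 the same scans gave 1.19, 1.17 and 0.93, and for MNB1b 0.17, 0.17 and 0.09. For the second set's nfd101 they gave 1.60, 1.57 and 1.07, and for its MNB1b 0.37, 0.27 and 0.12. The high scan was thus the lowest for each of these genes; its difference from the others was not tested.

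Other genes of HMG and FACT proteins, a histone chaperone, were called on the SAM side on the first set in 6 of 6 cases. The share over all 582 named genes was 27.1%. The median of the 6 was 0.90, against −0.24 over all named genes. The largest was nfd106, at 1.45 ± 0.18 over 9 spots that all lay between 1.17 and 1.68. hmg2 lay at 1.04 ± 0.31, and the FACT subunits SPT16 and nfd110 (SSRP1) at 1.11 ± 0.65 and 0.44 ± 0.67. The nfd110 call is marginal (adjusted p = 0.0466) and was lost in 11 of 17 alternatives, among them the removal of any replicate but the fifth (0.27 to 0.49), and its mean was −0.052 with SAM in Cy5 alone. Of the second set's genes on this list 5 of 7 were called on the SAM side, against 27.9% of all 455 named genes. The median of the 7 was 0.79, against −0.22 over all named genes. Among the 5 were HMG11 at 0.85 ± 0.15 and nfd106 at 1.27 ± 0.31, while nfd110 lay at −0.0065 ± 0.34 and did not pass.

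The seventh gene of that list on the second set was MNB1a, at −0.67 ± 0.53 on the seedling side (adjusted p = 0.0158), a call lost without replicate 1 (−0.56, adjusted p = 0.0532) and with SAM in Cy3 alone. It shares its name with MNB1b but is known as a zinc-finger protein of the Dof family and not as an HMG protein. Of the remaining genes of the list, MNB1b had the lowest mean in the first set, and in the second only nfd110 lay lower.

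The other methyl-DNA binding genes had means between −0.33 and 0.24 on the first set and between −0.50 and 0.59 on the second, a range that holds the mbd113 mean. Single spots ranged further, as with mbd113: the 12 mbd115 spots of the first set ran from −2.02 to 0.60, with 1 past the threshold, on the seedling side. On the first set 1 of 6 passed on the SAM side, mbd101 at 0.24 ± 0.11, and 1 on the seedling side, mbd106 at −0.33 ± 0.26. The mbd101 call (adjusted p = 0.0471) was lost in 13 of 17 alternatives and whichever replicate was left out (0.20 to 0.27, adjusted p 0.0519 to 0.146). That of mbd106 was lost in 3, among them without replicate 3 (−0.30, adjusted p = 0.0524). In the second set 2 of 6 passed on the SAM side, mbd111 at 0.59 ± 0.27 and mbd101 at 0.41 ± 0.26, and 1 on the seedling side, mbd115 at −0.50 ± 0.31, which was lost in 3 of 17 alternatives. The medians of the 6 genes were 0.12 and 0.28 on the 2 sets. Among all named genes, SAM-side calls made up 27.1% and 27.9%, and seedling-side calls 45.2% and 45.7%. Whether the counts of 6 genes differ from these shares was not tested.

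Beside his2b5 the first set held 3 histone genes, all of the linker histone H1 that binds between nucleosomes, and none passed: his1a lay at 0.41 ± 0.80, hon101 at 0.26 ± 0.22 and H1 at −0.21 ± 0.38. The smallest adjusted p among them in limma was that of hon101 (0.0611). Over all named genes of the set 72.3% passed, and a difference from that share was not tested. The means of these 3 genes cover spots that differed. Those of his1a ran from −0.70 to 1.57, and 2 of 3 passed, toward the SAM. Those of hon101 ran from −0.20 to 0.89, and 1 of 3 passed, toward the SAM. Of the 5 H1 spots, from −0.89 to 0.82, 1 was called toward the SAM and 2 toward the seedling. Under other settings his1a passed on the SAM side in 5 of 17, among them without replicate 5 (0.63, adjusted p = 0.00412), hon101 on the SAM side in 2 and H1 on the seedling side in 1. Of the DNA methylation genes, met2 lay on the SAM side at 1.55 ± 0.33 and 1.46 ± 0.34 on the 2 sets. dmt101, a maintenance methyltransferase gene, lay at 1.32 ± 0.73 on the first set, over 3 spots that all passed on the SAM side. Its only spot on the second set lay at −0.99 ± 2.18, from −3.79 to 2.20 over the slides, and did not pass.

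Of all named genes 27.1% and 27.9% were called on the SAM side on the 2 sets, and the medians over all of them were −0.24 and −0.22. Further chromatin genes (nucleosome assembly, histone acetylation and deacetylation, Polycomb) were called on the SAM side in 13 of 16 cases in the first set and 13 of 15 in the second, with medians of 1.25 and 1.04. The level of his2b5 and nfd101 was thus near the middle of that list. hac106, an acetyltransferase gene, led on the first set at 2.06 ± 0.28, followed by the Polycomb gene fie2 at 1.74 ± 0.64. nfc102 led on the second at 1.81 ± 0.14, followed by nfc101 at 1.79 ± 0.18. On the seedling side were nfa104 at −0.67 ± 0.49 on the first set and hac108 at −3.79 ± 0.21 on the second, each read by 1 spot.

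**Figure D5:**
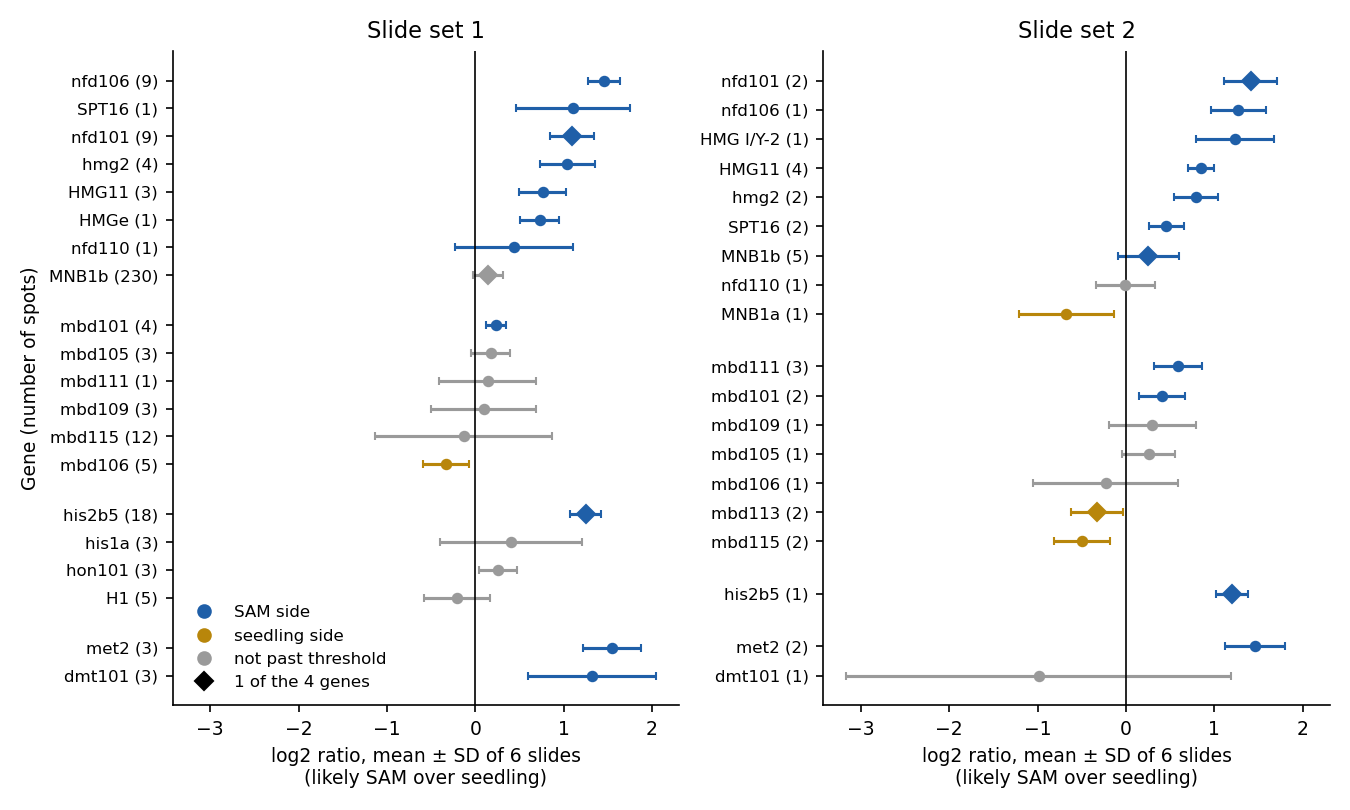
log2 ratio, mean and SD of 6 slides (horizontal axis), of the 4 genes (diamonds) and of other HMG and FACT, methyl-DNA binding, histone and DNA methylation genes (circles, from top to bottom) on each slide set, with the number of spots in parentheses and coloured by the limma call. MNB1b, as the annotation names it, lies at the foot of the HMG genes on the first set at 0.14. The his2b5 mean of 1.25 lies above the means of the linker histone genes. Single spots of those genes, not drawn, reach up to 1.57 (his1a).

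The genes with slide values most like those of each gene were found by the root mean square difference over the 6 slides of a set. For nfd101 on the first set the nearest of 581 others was his2b5, at 0.18, followed by mEmBP-1a at 0.21 and hmg2 at 0.23. For his2b5 they were mEmBP-1a at 0.08, nfd101 at 0.18 and MRP2 at 0.23. For MNB1b they were fsd1 at 0.14, cal2 at 0.17 and glx1 at 0.17.

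Among 454 others of the second set, nfd101 was nearest to HDT1, nfa103 and HD2b, all listed as chromatin genes, at 0.16 to 0.27. his2b5 was nearest to nfc103, SRP2B and smh4 at 0.22 to 0.24. MNB1b was nearest to LOC732727, GNAT19 and KIN6 at 0.18 to 0.25, and mbd113 to pdh1, LOC100125655 and LOC542160 at 0.22 to 0.24. The measure takes in both the level and the course over slides, and for mbd113 it rests on the mean of opposed spots.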

How the data were processed

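The authors deposited 1 ratio per spot and scan; 3 of 7 scans per slide were used here. What the authors deposited was taken to be the natural log of a ratio between channels, and was turned into log2. That base came from the values. Of 144765 pairs of repeated values within scans of the first set, 296 lay 2 times the natural log of a whole number apart. The tolerance alone would give 24.8. Repeated values were taken to be those of spots with a channel at floor level. No source used here gives the authors' normalization, background handling or numerator. Slides of opposite dye orientation correlated positively (0.60 to 0.86), so the values run the same way.

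Scans were centred on their medians and averaged per slide. Gene values are means of a gene's probes. limma 3.58.1 (R 4.3.3) was fitted with an intercept and a dye term over all probes or named genes of a set, with Benjamini-Hochberg adjustment, and was tested on simulated data. Sign-flip tests over 6 slides cannot go below 0.031. Same-numbered replicates of the 2 sets are the same RNA pairs, per the labels. Deviations of same-numbered slides correlated by 0.008 to 0.12 over 297 genes. For replicates 1, 3, 5 and 6 a slide of another number correlated more, so the values do not show the pairing.

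Names came from the platform annotation and RefSeq's gene names for Zm-B73-REFERENCE-NAM-5.0, without coordinates. MNB1b's gene ID was not found among these. cDNA spots of a gene family may also bind related transcripts. Named were the 4 genes, per list and direction the 2 genes of smallest adjusted p, and the 3 nearest patterns. Others were named after their values were seen. Members and lists were chosen with earlier results of these data known. Alternatives were other centring and scaling, single scans, no dye term, a robust eBayes, single dye orientations, the median of probes, each replicate left out, and 2 steps added after seeing the data. Python 3.11.15, pandas 2.3.3, numpy 2.4.6, matplotlib 3.10.9 and the R package data.table (version 1.17.8) were used.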

Additional observations from a re-analysis of the deposited data

Results flagged for a closer look

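On his2b5 spot 5692 of the first set, replicate 2 read 0.21, far below the other 5 slides, which lay between 1.25 and 1.72. It was the only such slide among 38 groups of 6 slides looked at for a slide far from the others, where chance alone gives about 5%. The mean of all 18 his2b5 spots in replicate 2 was 1.34.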

How the results depend on the processing

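The SAM-side calls of nfd101 and his2b5 on both sets, and the absence of a call for MNB1b on the first, held under all alternatives tested. The MNB1b spots called on the first set's SAM side, 7, numbered 4 without the dye term, 13 in the low scan alone, 22 with SAM in Cy5 alone and 4 to 18 with a replicate left out; on the seedling side, 1, they numbered 3 in the high scan, 8 with SAM in Cy3 alone and 4 with SAM in Cy5 alone. On the second set they numbered 2 on the SAM side in the low scan, 0 with SAM in Cy3 alone, 2 with SAM in Cy5 alone and 1 to 2 with a replicate left out, and 1 on the seedling side with SAM in Cy3 alone. MNB1b on the second set, 0.25, did not pass without centring (0.24), in the high scan (0.12) or without the dye term (0.25), stood at −0.013 with SAM in Cy3 alone, and ran from 0.17 to 0.30 with a replicate left out. mbd113, −0.33, did not pass in the low scan (−0.33), the high scan (−0.28), with SAM in Cy3 alone (−0.23) or in Cy5 alone (−0.43), and ran from −0.41 to −0.24 with a replicate left out.

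The nfd101 minus his2b5 difference of the first set was −0.13 in the medium scan and −0.18 with slides centred along the spot numbers, neither past the threshold, and turned to 0.19 with the median of a gene's probes; on the second set it turned to −0.089 in the high scan. With a replicate left out 5 slides remain and the exact test cannot go below 0.0625, so no pair can pass. The first set's differences then ran from −1.02 to −0.91 (MNB1b minus nfd101), −1.14 to −1.09 (MNB1b minus his2b5) and −0.17 to −0.12 (nfd101 minus his2b5). The second set's ran from −1.27 to −1.11 (MNB1b minus nfd101), −1.03 to −0.85 (MNB1b minus his2b5), −1.65 to −1.45 (mbd113 minus his2b5), 0.11 to 0.25 (nfd101 minus his2b5) and 1.57 to 1.87 (nfd101 minus mbd113). In the high scan 6 nfd101 spots differed from the gene's others, against 0. With a replicate block, the differences between sets stayed at −0.32 for nfd101, −0.11 for MNB1b and 0.050 for his2b5, with exact-test adjusted p of 0.0938, 0.469 and 0.469, and no call changed. Slides centred along the spot numbers changed no other call on the 4 genes. It moved the second set's other methyl-DNA binding genes to 4 calls toward the SAM and 0 toward the seedling, against 2 and 1. Over all alternatives the first set's other methyl-DNA binding genes had 0 to 1 calls toward the SAM, 0 with any replicate left out, and 0 to 2 toward the seedling, and its linker histones 0 to 2 toward the SAM and 0 to 1 toward the seedling. Depth is not known, since no intensities were used.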
